A study of Mus musculus with 4 samples.

Results

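Oligodendrocyte precursor cells with Pdgfra made up 100 of the 10975 cells kept from 4 HGG-MYCN mouse tumors (0.911%), and 96 of the 100 came from mouse 5 and mouse 7. The precursors were chosen by measured values: a cell was counted when it held at least 2 UMIs of Pdgfra, a UMI of at least 2 of the 5 lineage genes Cspg4, Olig1, Olig2, Sox10 and Neu4, at most 1 of the 4 stroma genes Dcn, Col1a1, Lum and Rgs5, and at most 2 UMIs of the transgene reporter. A UMI is the molecular tag that counts a captured mRNA once, and the reporter is the sum of firefly luciferase (FLUC) and human MYCN transcripts. Before that, barcodes with fewer than 200 genes, over 40000 UMIs or a mitochondrial share of 25% or more were set aside, which left 10975 of 11834.

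Tumor cells of 4 mice were sequenced as 1 droplet library (10x Genomics, 3′ chemistry) per mouse, at 43 days of age (P43, mouse 4 and mouse 5) or at 70 days (P70, mouse 6 and mouse 7). All 4 mice had the genotype hGFAP-cre::TP53Fl/Fl::lsl-MYCN, in which Cre under the human GFAP promoter removes floxed Trp53 and opens a stop-blocked transgene with human MYCN and luciferase in the Rosa26 locus. Oligodendrocytes are among the cells that descend from radial glia, where Cre is made, so the lineage of the precursors lies within its reach. Counts of Trp53 at the 3′ end do not show whether the floxed part was lost. No mouse without Cre or transgene was analysed here. The suspensions had been frozen and sorted for vital cells before loading, so shares of cells describe the loaded suspension.

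Oligodendrocyte precursors are the dividing glia of the brain that bear the PDGF receptor alpha and the proteoglycan NG2 (Cspg4). PDGF-AA binds the receptor and keeps them dividing through the MAPK pathway. They also receive synapses from neurons through glutamate and GABA receptors. On commitment they lose Pdgfra, pass through a premyelinating stage with Gpr17, Bmp4 and Enpp6, and then switch on myelin genes such as Mbp and Mag. On the GRCm38 (mm10) build with GENCODE vM21, Pdgfra is a protein-coding gene on the plus strand at chr5:75152292-75198215, Cspg4 lies at chr9:56865033-56899870 and Sox10 on the minus strand at chr15:79154908-79165240. Olig2 (chr16:91225457-91228677) and Olig1 (chr16:91269772-91271933) are neighbours on the same chromosome.

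The sex labels of both P43 libraries went against their Y-linked genes. In kept cells without a reporter UMI, 4 Y-linked genes summed to 196 CPM (a gene's UMIs per 1e+06 UMIs of the summed cells) in mouse 4, labelled female, and to 0.422 CPM in mouse 5, labelled male. The values were 188 CPM in mouse 6 (male) and 0 CPM in mouse 7 (female). The sex labels may be wrong or the libraries of the P43 mice may have been exchanged, which cannot be told apart here, so mouse 4 and mouse 5 name the libraries labelled as such. Both carry the same age label and no comparison uses sex. Values for mouse 5 are given apart from those for mouse 7, and counts from a fit of all mice without mouse 5 stand beside most gene lists. The libraries shared 15 cell barcodes over all pairs, none of them a precursor.

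At P43, mouse 4 held 3 precursors among 3319 kept cells (0.0904%, 95% exact interval 0.0186 to 0.264) and mouse 5 held 13 among 1455 (0.893%, 0.477 to 1.52). At P70, mouse 6 held 1 among 2732 (0.0366%, 0.000927 to 0.204) and mouse 7 held 83 among 3469 (2.39%, 1.91 to 2.96). The intervals cover counting error only. Each age had a mouse with a low and a mouse with a high share and the ages overlapped, and with 2 mice against 2 the smallest two-sided exact permutation p would be 0.333. No test of age was run. The libraries also differed in depth, with medians of 1419, 4199, 4586.5 and 10450 UMIs per kept cell in mice 4, 5, 6 and 7, and the part of depth in the shares was not tested. The precursors themselves had medians of 2681, 6254, 10233 and 3526 UMIs, and summed to 8886, 83914, 10233 and 319627 UMIs.

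The rule's own genes are given as a description of the choice. The precursors held 2 to 59 Pdgfra UMIs with a median of 5, exactly 2 in 16 cells and 10 or more in 13, and a further 11 cells that met the rest of the rule had a single Pdgfra UMI and stayed outside. Olig1 was seen in 97 of the 100 precursors, Cspg4 in 91, Olig2 in 67, Sox10 in 65 and Neu4, a sialidase, in 26. Neu4 was seen in 10 of 13 precursors of mouse 5 and 15 of 83 in mouse 7. Each mouse had 18 Neu4 UMIs, of 83914 UMIs in mouse 5 and 319627 in mouse 7. The precursors of mouse 7 were shallower, and the part of depth in this difference was not tested. Pdgfra also marks fibroblasts, and of the 141 kept cells with 2 or more Pdgfra UMIs, 9 had 2 or more of the stroma genes.

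**Figure D1:**
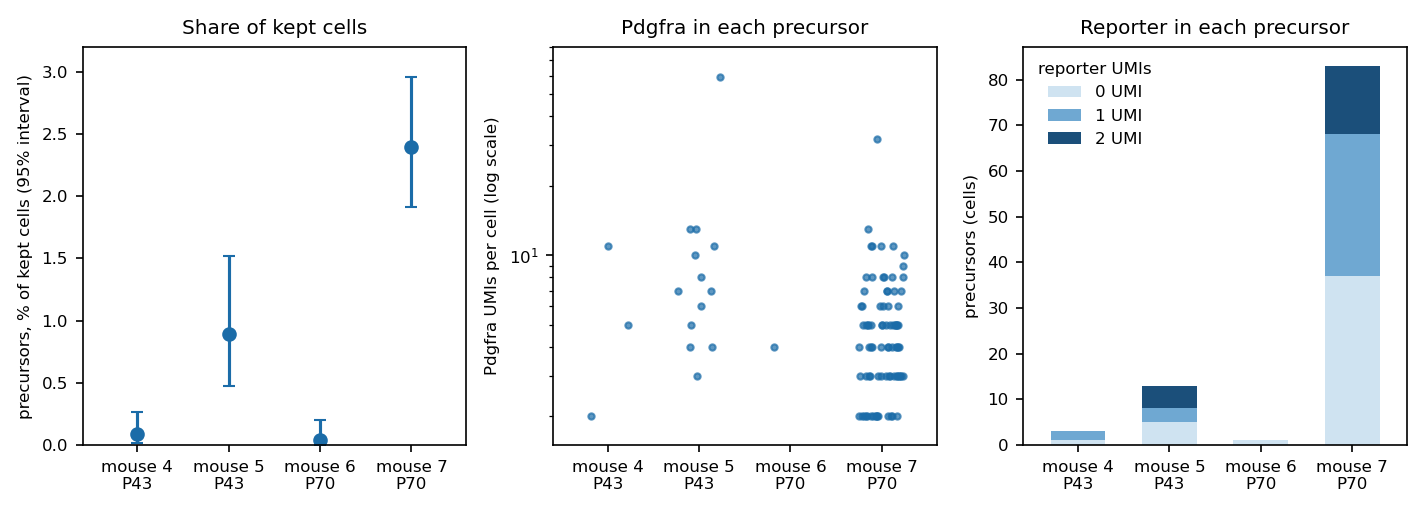
Precursors with Pdgfra in each mouse: their share of kept cells with the 95% exact interval (left), the Pdgfra UMIs of every precursor on a log axis (middle, points spread sideways) and the number of precursors with 0, 1 or 2 reporter UMIs (right). Mouse 7 holds 83 and mouse 5 holds 13 of the 100 cells, and the highest Pdgfra count is 59 UMIs.

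Most markers of other cell types were near 0 in the precursors, with markers of astrocytes and neurons as exceptions. Of 9 fibroblast and mural markers, 4 were limited by the rule itself, so their low counts follow in part from the choice. The list had 1 UMI in mouse 5, of the rule's gene Lum, and none in the other mice. Col3a1, Col1a2, Vtn, Kcnj8 and Acta2, which the rule did not use, had no UMI in any precursor. Of 8 immune markers, none had a UMI in mouse 4 or mouse 5, and mouse 7 had 1 UMI of Ptprc, whereas the only precursor of mouse 6 had 2 such genes, Cd74 included. Of 5 endothelial markers, mouse 5 had 2 UMIs of Cldn5 and mouse 7 had 1 of Flt1, and 4 erythrocyte genes were at 0 in every mouse. Of 4 ependymal markers, Foxj1 had 1 UMI each in mouse 5 and mouse 7. Of the astrocyte markers, Slc1a2 had a UMI in 13 of 13 precursors of mouse 5 and 45 of 83 of mouse 7. Aldoc was seen in 8 of 13 and 41 of 83, and Gfap and Gja1 had no UMI in any precursor. Neuron markers were the other exception: 8 genes summed to 131 CPM in mouse 5 and 172 CPM in mouse 7, led by Tubb3 (83.4 and 65.7 CPM), and 8 precursors of mouse 7 had UMIs of 2 or more of them. Against the reporter-positive cells described below, 5 of the 8 were tested: Snap25 and Syt1 were higher in the precursors and Tubb3 was lower (92.8 and 193 CPM in the reporter-positive cells, edgeR adjusted p = 0.0096). The lower call was not made by DESeq2 or without the mouse as a block. In that comparison, a fit of all mice without mouse 5 called no neuron marker. No doublet caller was run: the limit of 40000 UMIs per cell, the lower end of the limit that the methods used against doublets, was the only step against them, and counts without the 9 mixed precursors are given for lists where a count of calls fell by 2 or more genes or to 0.

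Reporter RNA was low in the precursors, as their rule requires. They summed to 155 reporter CPM in mouse 5 (95% exact Poisson interval 82.5 to 265) and 191 CPM in mouse 7 (146 to 245). In mouse 5, myeloid cells (2 or more of C1qa, C1qb and Csf1r) had 16.1 CPM, endothelial cells 203 CPM and mural cells 95.1 CPM, and in mouse 7 myeloid, endothelial and mural cells had 291, 167 and 1409 CPM. Mature oligodendrocytes under the same limit of 2 reporter UMIs had 24.1 CPM in mouse 5 and 134 CPM in mouse 7. Reporter-positive oligodendroglial cells had 3128 and 1821 CPM. The limit of 2 reporter UMIs per cell bounds the values of both classes, more tightly in deeper cells (medians of 6254 UMIs in the precursors and 12312 in the mature cells of mouse 5), so no order is read from them. Of the precursors, 44 had 0, 36 had 1 and 20 had 2 reporter UMIs. Without the limit, 25 more cells (6 in mouse 5 and 19 in mouse 7) would count, and the level would be 310 CPM in mouse 5 and 716 CPM in mouse 7. Of these 25, 10 had exactly 3 reporter UMIs. The 11 in mouse 7 with 3 to 9 reporter UMIs had 1841 CPM of Ptprz1 and 766 CPM of the myelin gene Mbp, and the 8 with 10 or more had 844 and 1355 CPM, against 3332 and 97.0 CPM in the precursors. In mouse 5 the 5 cells with 3 to 9 reporter UMIs had 4170 CPM of Ptprz1 and 39.5 CPM of Mbp, close to the 4433 and 47.7 CPM of its precursors, and its only cell with 10 or more had 1498.5 and 0 CPM.

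To describe what the precursors express beyond the rule, their summed UMIs were compared within mouse with those of 2 classes. The mature oligodendrocytes with little or no reporter (3 or more of Mog, Mal, Ermn, Opalin, Aspa and Apod, no Pdgfra UMI and at most 2 reporter UMIs) numbered 73 in mouse 5 and 121 in mouse 7, of which 21 (28.8%) and 81 (66.9%) held 1 or 2 reporter UMIs. The reporter-positive oligodendroglial cells (2 or more lineage genes, at most 1 stroma gene, fewer than 2 Pdgfra UMIs, 3 or more reporter UMIs) numbered 191 and 1801. Both classes were deeper than the precursors, whose medians were 6254 and 3526 UMIs. Medians were 25691 and 13007 UMIs in the reporter-positive and 12312 and 6353 in the mature cells of mouse 5 and mouse 7. Counts of calls with thinned cells are given below for all genes and some lists. Both comparisons use the same precursors of mouse 5 and mouse 7, the only mice with at least 10. Genes of either rule were left out of the tests. The classes were cut on RNA of the same cells, so genes that accompany a rule's genes differ in part by the choice. The test was edgeR's quasi-likelihood test with the mouse as a block, which leaves 1 residual degree of freedom, and n is 2 mice in each class.

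Against the mature cells, 573 of 7896 genes tested were higher in the precursors (7.26%) and 589 were lower (7.46%) at an adjusted p under 0.05. Against the reporter-positive cells, 1130 of 10731 were higher (10.5%) and 1031 lower (9.61%). Less RNA of a gene per cell and fewer cells with it cannot be told apart in summed UMIs. Of the calls, 1161 of 1162 and 2137 of 2161 had the same direction in both mice. The median log2 difference over all genes tested was -0.16 against the mature and -0.20 against the reporter-positive cells.

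Precursor genes that the rule did not use were higher in most cases. Of 27 such genes, 25 were tested against the mature cells, with 23 higher and 0 lower (median log2 difference 5.91), and 27 against the reporter-positive cells, with 26 higher and 0 lower (median 5.04). In a fit of all mice without mouse 5, 15 of 17 and 14 of 22 tested were higher, and DESeq2 called 15 of 25 and 23 of 27. Ptprz1, a receptor phosphatase, was at 5627, 4433, 1270 and 3332 CPM in the precursors of mice 4, 5, 6 and 7, and all 4 values lay above the highest level in the 5 other classes of any mouse, 159.5 CPM. It had a UMI in 13 of 13 precursors of mouse 5 and 83 of 83 of mouse 7. With every cell thinned to 2000 UMIs, 98.6% of precursors of mouse 7 had a Ptprz1 UMI. So did 16.2% of its reporter-positive, 5.79% of its mature and 2.74% of its myeloid cells. The part of free RNA in the myeloid share was not tested. The proteoglycan Cspg5 had 2812 and 1755 CPM in the precursors of mouse 5 and mouse 7, against 13.2 and 32.7 CPM in the mature cells (log2 difference 6.17 ± 0.58 SE, edgeR adjusted p = 3.4e-06).

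Lhfpl3, a gene typical of precursors at chr5:22746059-23275597, set the cells apart from both classes. Its level was 563, 798, 489 and 704 CPM in the precursors of mice 4, 5, 6 and 7. It had no UMI in the mature cells of mouse 5 and mouse 7, so that it was at least 419-fold higher in the precursors (taking 3 counts over both mice for the 0), and the reporter-positive cells had 0.888 and 0.903 CPM (log2 difference 9.30 ± 0.60, adjusted p = 4.7e-51). The complement-like protein C1ql1 (536 and 244 CPM), the AMPA receptor partner Cacng4 (1049 and 619 CPM) and the transcription factors Sox5 (179 and 128 CPM) and Sox6 (453 and 316 CPM) were higher than in both classes too. Zfp488, which acts later in the lineage, did not pass the test in either comparison (adjusted p = 0.85 and 0.57).

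Among the 10 genes with the highest fitted log2 difference from the mature cells, an order that is no measured size for genes at 0 UMIs, were also Zeb1, a zinc finger repressor (at least 283-fold), the membrane glycoprotein Gpm6a (at least 283-fold), Ly6h (at least 151-fold), Olfm2 (at least 152-fold), Vxn (at least 142-fold), the cyclin Ccnd2 (at least 125-fold), Tmem100 and Nxph1 (both at least 116-fold) and the kinase Stk32a (at least 106-fold). All 10 had 0 UMIs in the mature cells of both mice. Against the reporter-positive cells the highest fitted values were those of the potassium channel Kcnd2 (at least 1412-fold) and Pnlip, known as pancreatic lipase (at least 1288-fold), followed by Nxph1, Sntg1 (at least 570-fold), Neto1, Pcdh15, Shc3, Brinp3, Lhfpl3 and Ramp1. Pnlip had 119 and 131 CPM in the precursors of mouse 5 and mouse 7 and no UMI in the reporter-positive cells of either mouse.

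Genes of the premyelinating stage split. Of 13, 4 were higher against the mature cells and 3 lower of 10 tested, and 4 were higher and 6 lower against the reporter-positive cells. The same 4 were higher in both comparisons: Gpr17, a receptor that marks cells about to differentiate, Itpr2, the kinase Fyn and Lims2. Gpr17 had 450, 620, 97.7 and 216 CPM in the precursors of mice 4 to 7, against 31.8 and 96.8 CPM in the mature and 91.3 and 95.5 CPM in the reporter-positive cells of mouse 5 and mouse 7 (log2 difference 1.53 ± 0.39 from the latter, adjusted p = 0.001). A UMI of Gpr17 was found in 11 of 13 and 44 of 83 precursors. Without mouse 5, in a fit of all mice, none of these genes was called higher in either comparison, and without the mixed precursors 2 were higher and 2 lower than in the mature cells.

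Bmp4, a ligand made by premyelinating cells, had 0 UMIs in all 100 precursors. Its level was 124 and 119 CPM in the reporter-positive cells, at least 16.1-fold higher (adjusted p = 3e-14), and 39.5 CPM in the myeloid cells of mouse 7. Enpp6, a phosphodiesterase of the newly formed oligodendrocyte, had 0 and 6.26 CPM in the precursors against 203 and 227 CPM (log2 difference -5.83 ± 0.68, adjusted p = 1.4e-15). Myrf, the transcription factor that drives myelin genes, had 35.8 and 21.9 CPM against 235 and 175 CPM (-3.26 ± 0.51, adjusted p = 4.4e-09), and Tcf7l2 and the deacetylase Sirt2 were lower as well. Bcas1, another gene of this stage, did not pass the test, with 191 and 438 CPM in the precursors and 366 and 558 CPM in the reporter-positive cells (adjusted p = 0.13).

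Myelin genes were low in every comparison. All 8 tested were lower than in the mature cells (median -6.91), and all 14 were lower than in the reporter-positive cells (median -6.10). Mbp, which compacts the myelin membrane, had 0, 47.7, 0 and 97.0 CPM in the precursors of mice 4 to 7, against 4746 and 5701 CPM in the mature and 2163 and 1994 CPM in the reporter-positive cells of mouse 5 and mouse 7. The myeloid cells had more Mbp than the precursors in both mice, 67.1 and 206 CPM. Mag, a myelin adhesion protein, had 11.9 and 3.13 CPM in the precursors against 3845 and 1060 CPM in the mature cells. The mature class differed between the mice: mouse 7 had less Mag and more Top2a (152 against 21.9 CPM), Bmp4 (96.8 against 2.19 CPM) and Tubb3 (503 against 30.7 CPM) than mouse 5. With a stricter mature class (5 or more of the 6 genes), 415 genes were higher and 509 lower.

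The 10 genes with the lowest fitted log2 difference from the mature cells had no or a single precursor UMI, so their order is no measured size, and genes outside the 10 such as Mag had larger measured ratios than some of their bounds. Cntn2, an axon adhesion protein, was at least 59.3-fold lower, the lysophosphatidic acid receptor Lpar1 at least 70.8-fold, Slc24a2 at least 48.6-fold, Tmem151a at least 50.1-fold and Evi2a at least 44.8-fold. Car2, a carbonic anhydrase, had 1 UMI in the precursors (in mouse 5) and 4395 and 1418 CPM in the mature cells. Tppp3, Itih3, Adssl1 and Car14 completed the 10. Against the reporter-positive cells the 10 lowest fitted values were those of Lrrc42 (at least 27.3-fold lower), Itih3 (at least 18.2-fold), Ermn, Bmp4, the ion channel Piezo2 (at least 15.5-fold), Cd82, Ppfibp2, Slc24a2, Wfdc12 and Tgfbi, all at 0 UMIs in the precursors of both mice, and the ratio of the Enpp6 levels given above, from 2 precursor UMIs over both mice, lay beyond all their bounds.

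**Figure D2:**
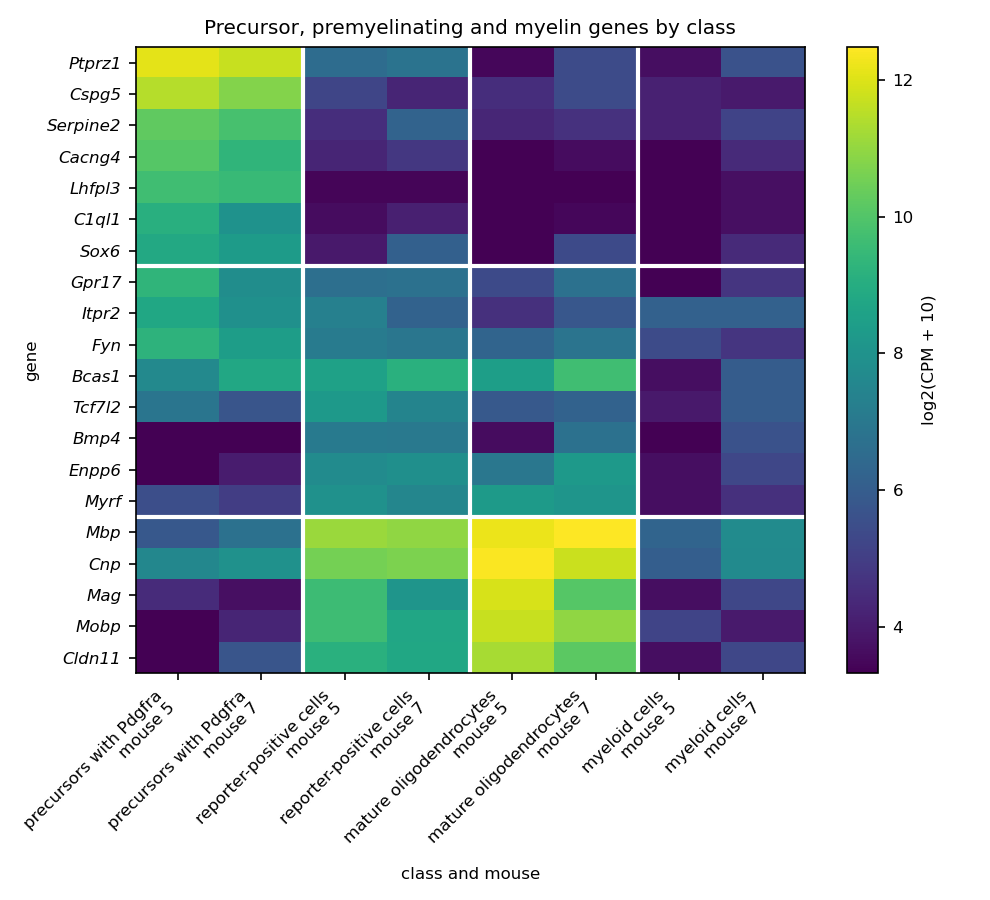
Summed expression, as log2(CPM + 10), of precursor, premyelinating and myelin genes (rows, separated by white lines) in precursors, reporter-positive oligodendroglial cells, mature oligodendrocytes with at most 2 reporter UMIs and myeloid cells of mouse 5 and mouse 7. Precursor genes are brightest in the first class, Bmp4 is at 0 there in both mice, and Mbp is brightest in the mature cells.

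PDGF ligands were low in the precursors and higher in other classes. Pdgfa, whose dimer is the main ligand of the receptor, had 35.8 and 31.3 CPM in the precursors of mouse 5 and mouse 7, 97.7 and 82.3 CPM in the mature cells (log2 difference -1.85 ± 0.58, adjusted p = 0.039) and 59.3 and 79.7 CPM in the reporter-positive cells (-1.50 ± 0.50, adjusted p = 0.016). Mural cells had 126, 95.1, 201 and 164 CPM of Pdgfa in mice 4 to 7. Pdgfb, which also acts on the beta receptor of pericytes, had no UMI in the precursors and 282, 462, 341 and 368 CPM in endothelial cells, and Pdgfd was between 32.3 and 66.9 CPM in endothelial cells. Levels in endothelial and mural cells are descriptions without a test, and these classes were set by 2 or more of their markers. Of the 9 ligands listed, Fgf1 was lower than in the mature cells and Fgf2 was higher than in the reporter-positive cells, the latter from 4 precursor UMIs, and none of these ligand calls was made by DESeq2. Without mouse 5, in a fit of all mice, no ligand was called in either comparison.

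**Figure D3:**
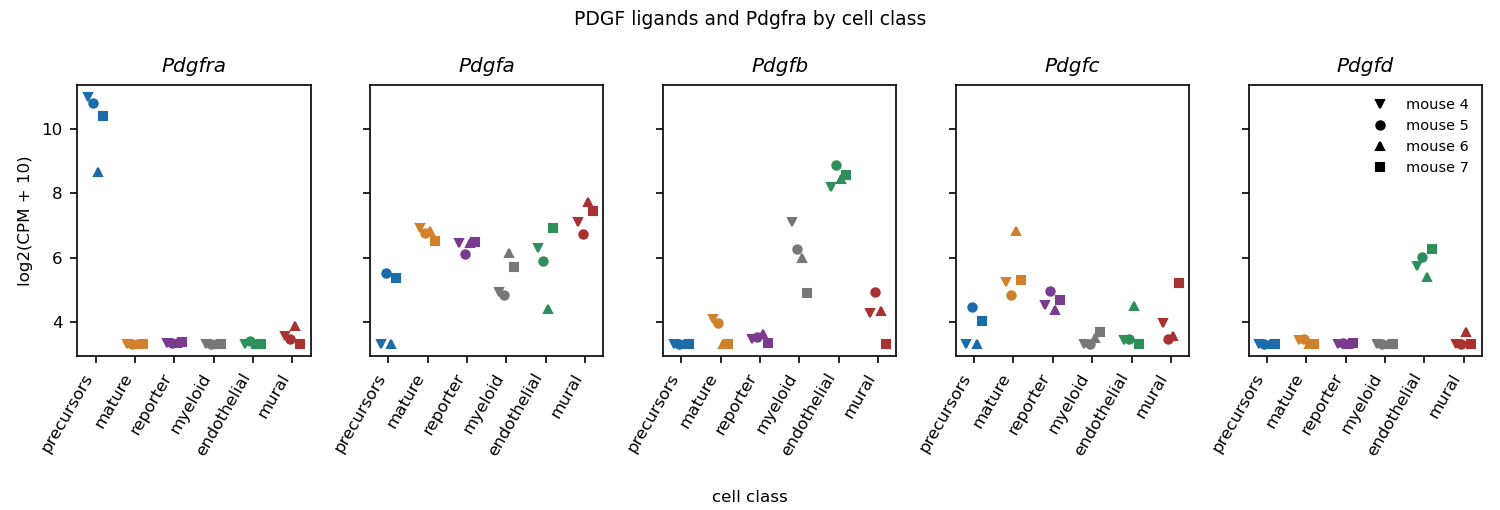
Pdgfra and 4 PDGF ligands as log2(CPM + 10) in 6 cell classes, with a marker shape for each mouse. Pdgfra is high in the precursors by the rule that chose them, Pdgfb and Pdgfd are highest in endothelial cells, and Pdgfa is spread over several classes; the precursors of mouse 4 and mouse 6 rest on 3 cells and 1 cell.

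Growth factor receptors other than Pdgfra were called in 3 of 8 tested against the mature and 3 of 9 against the reporter-positive cells, of 11 listed. Ntrk2 and Ntrk3, receptors of BDNF and neurotrophin 3, were higher in both comparisons and Fgfr2 was lower in both, so that 2 genes were higher, beside 7.26% and 10.5% of all genes tested, and 1 lower, beside 7.46% and 9.61%. Ntrk2 had 225, 346, 97.7 and 335 CPM in the precursors of mice 4 to 7, and 3.33 and 7.73 CPM in the reporter-positive cells of mouse 5 and mouse 7 (5.53 ± 0.43, adjusted p = 5e-35). Fgfr2 had 1 UMI over both mice in the precursors and 306 and 82.3 CPM in the mature cells. The neuregulin receptor Erbb3 had 131 and 53.2 CPM and did not pass the test in either comparison, and Egfr had no UMI in any precursor.

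Most of the tested feedback inhibitors and ETS factors that MAPK signalling switches on were higher in each comparison. Of 11, 7 of 10 tested were higher than in the mature cells (median 3.57) and 10 of 11 were higher than in the reporter-positive cells (median 4.08), and none was called lower. Of those not called against the mature cells, 2 were fitted higher and 1 lower. Spry4, an inhibitor of receptor tyrosine kinase signalling, had 143 and 37.5 CPM in the precursors of mouse 5 and mouse 7 against 0.222 and 0.0393 CPM in the reporter-positive cells (8.93 ± 1.13, adjusted p = 2e-13). The phosphatase Dusp6 had 71.5 and 28.2 CPM against 0.444 and 0.432 CPM. The ETS factors Etv4 (107 and 103 CPM against 0.444 and 0.118 CPM) and Etv5 (107 and 56.3 CPM against 0.222 and 0.196 CPM) behaved alike, and 28 of 83 precursors of mouse 7 had an Etv4 UMI. Cyclin D1 (Ccnd1) had 1287 and 785 CPM against 78.8 and 27.1 CPM (4.03 ± 0.51, adjusted p = 2.1e-13), though 1 precursor held 61 of its 108 UMIs in mouse 5. Against the mature cells DESeq2 called 4 of 10, and in fits of all mice to 0 of 2 tested without mouse 5 and 0 of 1 without mouse 7; against the reporter-positive cells these fits called 4 of 6 and 2 of 6. Without the mixed precursors 5 of 10 were higher than in the mature cells.

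Receptors and channels for neuronal signals were another group in which most tested genes were higher. Of 16, 10 of 13 tested were higher than in the mature cells and 14 of 15 were higher than in the reporter-positive cells. Without mouse 5, in a fit of all mice, 3 of 5 and 6 of 9 tested were higher. Gria2, the AMPA receptor subunit that limits calcium entry, had 1275 and 1245 CPM in the precursors of mouse 5 and mouse 7 against 6.66 and 6.87 CPM in the reporter-positive cells (7.13 ± 0.62, adjusted p = 9.3e-28). It had a UMI in 13 of 13 and 79 of 83 precursors. Gria3 (191 and 244 CPM), the NMDA subunit Grin3a (191 and 119 CPM) and the metabotropic receptor Grm5 (59.6 and 197 CPM) were higher in both comparisons, as were the sodium channel subunits Scn1a and Scn3a. Snap25, one of the neuron markers above, was higher in both comparisons too (35.8 and 59.4 CPM), though DESeq2 did not call it against the mature cells. Without the mixed precursors Snap25 was not tested against the mature cells, and 8 of 12 tested receptor and channel genes were higher than in the mature cells.

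Genes shared with astrocytes and neural stem cells were mostly higher in the main fits. Of 15, 7 of 11 tested were higher and 2 lower than in the mature cells, and 8 of 12 were higher and 2 lower than in the reporter-positive cells. In a fit of all mice without mouse 5, 2 of 5 were higher and 2 lower in the first comparison, and 3 of 9 higher and 1 lower in the second. Without mouse 7, 1 of 3 was higher and 2 lower in the first, and 3 of 10 higher and 2 lower in the second. Fabp7, a fatty acid carrier of radial glia, had 2455 and 3842 CPM against 85.7 and 126 CPM in the reporter-positive cells (4.46 ± 0.78, adjusted p = 2.9e-07). The glutamate transporter Slc1a2 had 524 and 238 CPM against 1.78 and 1.81 CPM, and the chaperone Clu had 95.3 and 172 CPM against 0 and 2.55 CPM. Fabp5, a related fatty acid carrier, was lower in the precursors (274 and 629 CPM against 1460 and 2195 CPM, -2.49 ± 0.71, adjusted p = 0.0041), and so was the metallothionein Mt1. The defining astrocyte gene Gfap was at 0 in every precursor, and Aqp4 had 6.26 CPM in mouse 7 and 1 UMI in mouse 6. Gja1 had no UMI either, whereas Aldoc had 12 UMIs in mouse 5 and 55 in mouse 7.

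Matrix and adhesion genes differed more from the reporter-positive than from the mature cells in count, though the difference between the comparisons was not tested. Of 13, 9 of 11 were higher and Col4a1 was lower against the reporter-positive cells, whereas 3 of 10 were higher against the mature cells: Col11a1, Nrcam and Nlgn3. Nlgn3, a neuroligin, had 298 and 141 CPM against 34.2 and 52.8 CPM in the reporter-positive cells (1.78 ± 0.37, adjusted p = 3.2e-05). Col4a1 was not lower in mouse 5, where it had 47.7 CPM against 31.5 CPM, and was not called by DESeq2 or without the block. In a fit of all mice without mouse 5, 3 of 10 genes were higher than in the reporter-positive and 0 of 6 than in the mature cells.

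Growth and lipid metabolism genes passed the test of the main fits against the reporter-positive cells only, and the difference between the comparisons was not tested. Of 15 genes of ribosome biogenesis and other targets of MYC proteins, 0 of 14 passed edgeR's test against the mature cells (0 at an unadjusted p under 0.05, 0 by DESeq2), and 9 of 15 were lower than in the reporter-positive cells (median -1.46; 7 by DESeq2). The 9 were Fbl, Nop56, Nop58, Nolc1, Mrto4 and Gnl3, which act in ribosome biogenesis, and the metabolic genes Srm, Odc1 and Ldha. Nop56 had 179 and 160 CPM in the precursors of mouse 5 and mouse 7 against 459 and 537 CPM (-1.98 ± 0.48, adjusted p = 0.00049). Srm, the spermidine synthase, had 107 and 93.9 CPM in the precursors of mouse 5 and mouse 7 against 400 and 385 CPM (-2.37 ± 0.47, adjusted p = 8.7e-06), and Odc1, the first enzyme of polyamine synthesis, had 83.4 and 109.5 CPM against 376 and 270 CPM. In a fit of all mice without mouse 5, 2 of the 15 were lower, and with cells thinned to 2000 UMIs 4 of 14.

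Of 11 genes of cholesterol synthesis and uptake, 8 were higher than in the reporter-positive cells (median 1.45) and 0 differed from the mature cells (0 at an unadjusted p under 0.05, 0 by DESeq2). Hmgcs1, an early enzyme of the pathway, had 346 and 491 CPM against 72.2 and 76.7 CPM (2.08 ± 0.40, adjusted p = 5.6e-06). By DESeq2, 2 of the 11 were called against the reporter-positive cells, and 0 in fits of all mice without mouse 5 or without mouse 7. Against the mature cells, the fit of all mice without mouse 7 called 1 of 2 tested lower. Immediate early genes, which also respond to tissue dissociation, were called higher in 5 of 8 against the reporter-positive cells (Fos, Fosb, Junb, Egr1 and Ier2) and in 2 of 8 against the mature cells (Fosb and Egr1). Fos had 155 and 541 CPM in the precursors against 51.1 and 167 CPM in the reporter-positive cells. DESeq2 called 2 and 0 of the 8, and without the mixed precursors 5 and 0 were called. In a fit of all mice, 1 and 0 were called without mouse 5, and 0 in both comparisons without mouse 7.

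**Figure D4:**
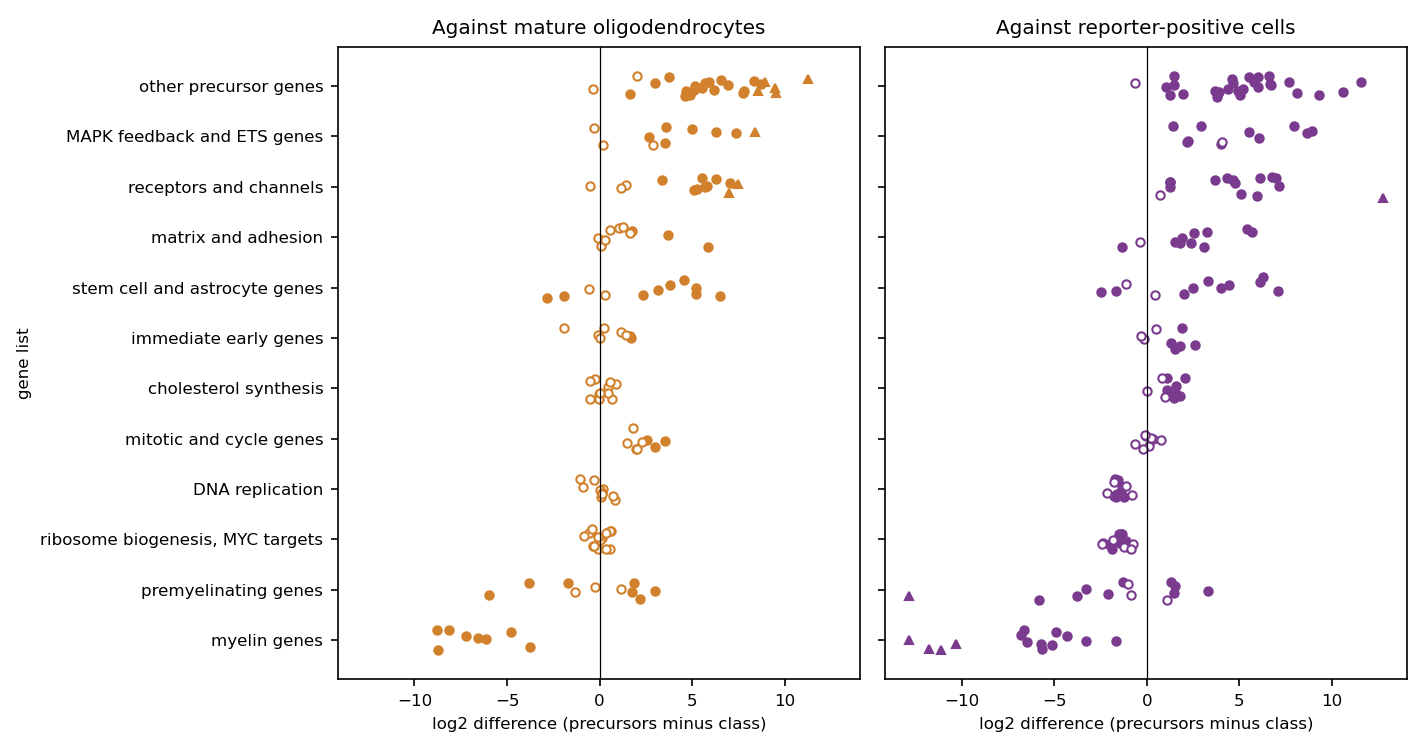
Log2 differences (precursors minus class) of the tested genes of 12 lists against mature oligodendrocytes with at most 2 reporter UMIs (left) and reporter-positive oligodendroglial cells (right), from edgeR over mouse 5 and mouse 7. Filled symbols passed an adjusted p of 0.05, open ones did not, and triangles are genes with 0 UMIs in a class, whose fitted value is no measured size. Most precursor, MAPK and receptor genes lie to the right in both panels, and the myelin genes lie to the left.

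A minority of the precursors of mouse 5 and mouse 7 was in the cell cycle by the count of 8 cycle genes. In mouse 7 their share was near that of the mature cells. Mouse 4 and mouse 6 had too few precursors for a share. At 2 or more of the genes they had 2 of 3 and 1 of 1, and after thinning to 2000 UMIs 1 of 2 and 0 of 1. With cells thinned to 2000 UMIs, 2 of 11 precursors of mouse 5 (18.2%, 95% exact interval 2.28 to 51.8) and 11 of 73 of mouse 7 (15.1%, 7.77 to 25.4) had at least 2 of the genes, with 2 and 10 shallower precursors left out. Before thinning the shares were 23.1% and 16.9%, beside 8.22% and 19.8% of the mature cells. After thinning, 40.7% and 40.1% of the reporter-positive cells and 5.48% and 12.4% of the mature cells had them, as did 0 of 42 myeloid cells of mouse 5 (3 counts, the limit set on a count of 0, would be 7.14%, and the exact upper limit is 8.41%) and 5.48% of those of mouse 7. The intervals cover counting error within 1 library only and are no test between the classes, and the shares come from cycle genes alone. The part of free RNA in these counts was not tested.

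The summed levels of the 8 genes had the order of the shares in mouse 7, with 1101 CPM in the precursors and 1608 CPM in the reporter-positive cells, but not in mouse 5, with 3873 and 1197 CPM. The shares are given as values only: 0 of 8 genes differed by edgeR (0 at an unadjusted p under 0.05, 0 by DESeq2). Against the mature cells 4 of 8 were higher (Mki67, Ccnb1, Ube2c and Cenpf). Top2a, the topoisomerase of dividing cells, had 691 and 200 CPM in the precursors of mouse 5 and mouse 7, 238 and 419 CPM in the reporter-positive and 21.9 and 152 CPM in the mature cells. In mouse 5 these levels rest on 1 precursor, which held 309 of the 325 UMIs of the 8 genes, among them 55 of 58 of Top2a and 100 of 105 of Cenpf. Without that cell the 8 genes summed to 249 CPM in the precursors of mouse 5. Without the mixed precursors, or with 3 Pdgfra UMIs required, 0 of the 8 genes were higher than in the mature cells, and in a fit of all mice without mouse 5 0 of 5 tested were. Of 12 DNA replication genes, 8 were lower than in the reporter-positive cells, among them Mcm6 (11.9 and 50.1 CPM against 71.3 and 113 CPM, -1.74 ± 0.47, adjusted p = 0.0024) and Pcna, but 5 without the mixed precursors, 0 by DESeq2, 0 of 9 with thinned cells and 0 in a fit of all mice without mouse 5. None of 10 tested differed from the mature cells (0 at an unadjusted p under 0.05, 0 by DESeq2).

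**Figure D5:**
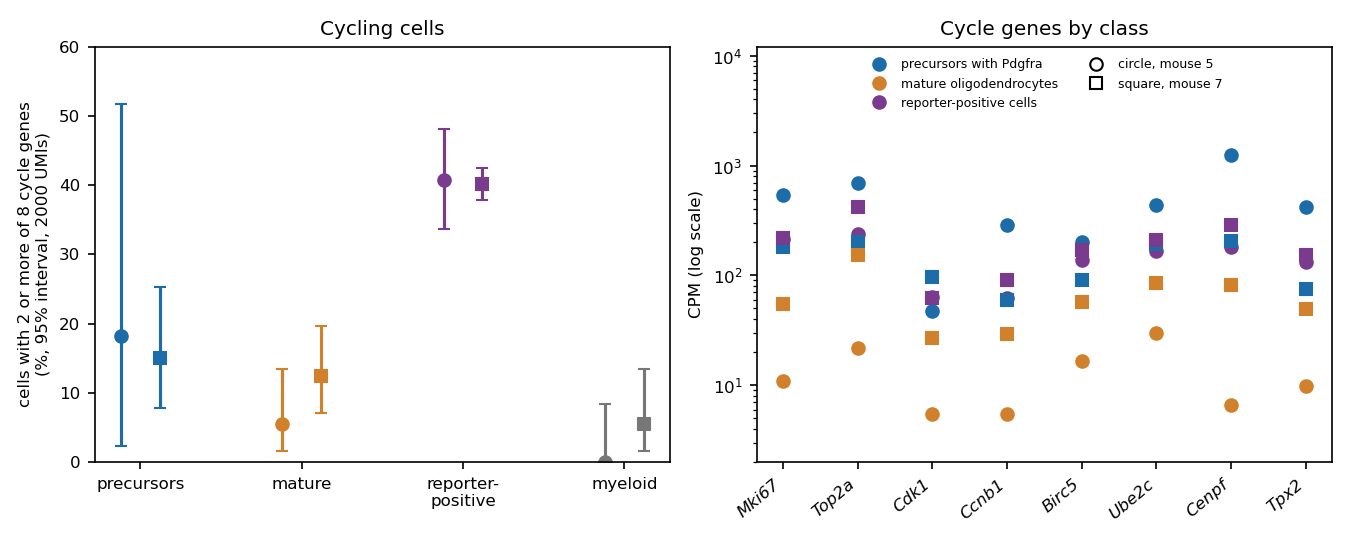
Left: share of cells with 2 or more of 8 cycle genes after thinning to 2000 UMIs, with 95% exact intervals, in mouse 5 (circles) and mouse 7 (squares). Right: CPM of the 8 genes on a log axis in precursors, mature and reporter-positive cells. The precursors' shares of 18.2% and 15.1% lie below the 40.7% and 40.1% of the reporter-positive cells, while in mouse 5 their CPM lie highest for most of the 8 genes, where 1 cell held 309 of the 325 UMIs.

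No Notch gene was called in the main fits, and BMP and Wnt response genes were called in both directions. Of 11 Notch genes, none of 5 or of 9 tested passed edgeR's test (1 and 2 at an unadjusted p under 0.05, 0 by DESeq2 in both), with Notch1 at 131 and 116 CPM. Against the reporter-positive cells, a fit of all mice called 1 of 8 lower. Leaving out mouse 6 or mouse 7 from it gave 1 of 9 and 1 of 8 higher. Of 11 BMP and Wnt response genes, 1 of 5 tested was higher and 2 lower than in the mature cells, and 1 of 7 higher and 3 lower than in the reporter-positive cells, of which DESeq2 called 1 higher and 1 lower in each comparison. Over all genes tested 7.26% and 10.5% were higher and 7.46% and 9.61% lower, so 1 of 5 and 1 of 7 higher is no result about the list. Id2, an inhibitor of differentiation, was higher in both comparisons (298 and 100.1 CPM against 23.5 and 19.5 CPM in the reporter-positive cells, 2.56 ± 0.39, adjusted p = 2.4e-09) and Smad7 lower in both. Nkd1, an inhibitor of Wnt signalling, was lower than in the mature cells, and Id1 and Id3 were lower than in the reporter-positive cells. Id3 had 47.7 CPM against 21.3 CPM in mouse 5, against the fitted direction. Of 12 genes of p53 and its targets, 6 and 10 were tested, and Phlda3 alone was called, lower in both comparisons (0 and 62.6 CPM against 90.6 and 72.6 CPM in the reporter-positive cells). Of all genes tested 7.46% and 9.61% were lower, so 1 of 6 and 1 of 10 is no result about the list, and neither call was made by DESeq2, without the block or without mouse 5. The call against the mature cells was also lost without the mixed precursors. The mouse Mycn gene had 23.8 and 3.13 CPM.

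Antigen presentation and stress genes differed from the reporter-positive cells in single genes. The MHC class I genes H2-K1 (47.7 and 72.0 CPM against 7.55 and 15.6 CPM) and H2-D1 (95.3 and 109.5 CPM against 15.1 and 36.3 CPM, 1.60 ± 0.44, adjusted p = 0.0025) were higher and Bst2 was lower. Of 12 tested, 3 were higher and 1 lower, beside 10.5% and 9.61% of all genes tested, and DESeq2 called 0. In fits of all mice, 1 was higher and 0 lower without mouse 5, and 0 higher and 1 lower without mouse 7. H2-K1 and H2-D1 belong to a family of near-identical genes whose reads may be shared. Of 7 tested genes raised in stressed oligodendroglia, 3 were higher and 1 lower, beside the same shares, and without mouse 5 1 was higher and 2 lower of 8. Apoe, a lipid carrier, had 763 and 504 CPM against 44.9 and 85.0 CPM (2.88 ± 0.43, adjusted p = 8.3e-10). Serpina3n and S100a6 were higher too, and Cd44 was lower. Mature cells of mouse 5 had 1687 CPM of Apoe, above its precursors. With thinned cells, an Apoe UMI was found in 76.7% and 21.5% of the mature cells and 72.7% and 58.9% of the precursors. Myeloid cells had 14252 and 40078 CPM of Apoe in mouse 5 and mouse 7, and the part of free RNA in the precursors' level was not tested. Against the mature cells, 1 of 7 and 1 of 6 genes of these lists were called: Ifit3, with 23.8 and 40.7 CPM against 1.10 and 1.21 CPM, and Il33, lower with 0 and 9.39 CPM against 108 and 30.3 CPM. In that comparison 7.26% of all genes tested were higher and 7.46% lower, so 1 of 7 and 1 of 6 is no result about the lists. Ifit3 came from 5 of 83 precursors of mouse 7, with 9 of its 13 UMIs in 1 cell, and neither call was made by DESeq2 or without the mixed precursors.

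Between the precursors of mouse 7 (P70) and mouse 5 (P43) there is 1 library each, so no test was made, and age, mouse and library cannot be told apart. Of 2140 genes with at least 20 UMIs in the higher mouse, 25 were more than 4-fold higher in mouse 7 (1.17%) and 9 in mouse 5 (0.421%), with 10 CPM added to both. The summed precursors of mouse 5 had more mitotic RNA, with Cenpf at 1251 against 203 CPM, Ckap2l at 298 against 50.1 CPM, Tpx2 at 417 against 75.1 CPM and Prc1 at 679 against 131 CPM. Nearly all of it was the single cell named above, which held 22 of 25 Ckap2l, 35 of 35 Tpx2 and 56 of 57 Prc1 UMIs. Without it mouse 5 had 77.8 CPM of Cenpf, 46.7 of Ckap2l, 0 of Tpx2 and 15.6 of Prc1, all below mouse 7. The fifth, Hexim1, an inhibitor of transcription elongation, had 250 against 37.5 CPM, and it was also higher in mouse 5 in the mature (77.9 against 25.4 CPM), reporter-positive (82.4 against 14.1 CPM) and myeloid cells (223 against 81.9 CPM). Of the 25 genes higher in mouse 7, 21 had at most 1 UMI in mouse 5. The linker histone gene H1f5 had 238 CPM in mouse 7 and 0 UMIs in mouse 5, at least 6.65-fold higher, and it was also higher in mouse 7 in the mature cells (log2 ratio 3.56) and the reporter-positive cells (1.12). Tfrc, Cirbp, H2ac8 and Snapc2 had 0 UMIs in mouse 5 and bounds of 2.98-, 2.63-, 2.54- and 2.01-fold, below the 4-fold limit.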

How the data were processed

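The authors aligned the reads with Cell Ranger 6.0.2 to mm10 extended by human MYCN and luciferase and deposited the unnormalized UMI counts of each cell barcode. From these counts, cells were chosen by the rules in the text and their UMIs summed per class and mouse (1e+06 UMIs per CPM unit). Genes were tested with edgeR 4.0.16 (filterByExpr, TMM, quasi-likelihood test, mouse as block, Benjamini-Hochberg adjustment, limit 0.05) in R 4.3.3. On simulated counts with 200 genes changed 4-fold, 25.5% were recovered for the mature and 39% for the reporter-positive comparison, so undetected changes are common. Alternatives were DESeq2 1.42.0, no count filter, no block, all mice, each mouse left out, thinning, and other cell limits; the stricter mature class and the levels without 1 precursor of mouse 5 were added after seeing the data. Shares carry Clopper-Pearson intervals, and a count of 0 was given a limit of 3 counts. Members and gene lists were chosen with earlier results of these data known. Some list genes are not reported here. Named by rule are list genes, the 10 largest fitted changes per direction and comparison (adjusted p under 0.05, same direction in both mice, at least 50 CPM in the higher class of both mice) and the 5 largest ratios between mouse 7 and mouse 5. Unlike the labels, which give dual-index libraries, the study's methods give single-index ones.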

Additional observations from a re-analysis of the deposited data

Results flagged for a closer look

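The Y-linked genes stood out, though none of them was tested in either main comparison. They summed to 196 CPM in kept cells without reporter UMIs of mouse 4, whose label is female, whereas mouse 7, also labelled female, had 0 CPM.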

How the results depend on the processing

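None of the 1162 and 2161 called genes turned its direction past the threshold in any refit that tested it, and the 2 comparisons kept calls in both directions throughout, but their numbers moved. Against the mature cells, 573 genes were higher and 589 lower. The counts were 265 and 268 with DESeq2, 258 and 375 with cells thinned to 2000 UMIs, and 340 and 543 without reporter UMIs. All mice together gave 204 higher and 474 lower, so that higher genes were 30.1% of its calls against 49.3%. Leaving out each mouse of that fit gave 50 to 428 higher and 160 to 698 lower, lowest without mouse 7, with 279 higher without mouse 4 and 136 higher and 184 lower without mouse 5. Against the reporter-positive cells, 1130 were higher and 1031 lower. DESeq2 called 265 lower, and its share of higher calls was 74.7% against 52.3%. Thinning gave 495 and 302, and no reporter UMI gave 594 and 482. All mice gave 646 higher and 1097 lower, so that lower calls outnumbered higher calls. The fits that left out each mouse gave 260 to 792 higher and 294 to 895 lower. Here 667 were higher without mouse 4, 407 were higher and 294 lower without mouse 5, and 260 were higher and 502 lower without mouse 7. Without the mouse as replicate block, 531 genes were lower and 857 higher than in the reporter-positive cells, which was 61.7% of the calls, and 415 were higher and 404 lower than in the mature cells.

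Among single named genes, 2658 values of planned refits kept their side of the threshold, 514 lost it and 2 reversed without passing it. In 1 mouse alone, with no test, 501 values kept their direction and 3 did not. In mouse 5 alone, Col4a1 was at 0.47, Id3 at 0.88 and Tyms at 0.094 (log2 difference from the reporter-positive cells, no test). In all mice without mouse 7, Fdps was at -0.68, and without mouse 5 Ncam1 was at -0.000168. The cause was not tested. Requiring no reporter UMI left 0.344% of kept cells in mouse 5 and 1.07% in mouse 7 as precursors. With 5 CPM added, 42 genes were past 4-fold in mouse 7, with 50 CPM added 1 in mouse 7 and 3 in mouse 5, and with thinned cells 63 in mouse 7 and 0 in mouse 5, of 882. Depth limits these comparisons most in mouse 5, whose 13 precursors held 83914 UMIs, so that a gene with no UMI there may have had up to 35.8 CPM.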
